A study of Sus scrofa with 9 samples.

Results

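Circular RNAs (circRNAs) whose host genes encode RNA-binding, splicing, RNA decay or translation factors were examined in pigs, in MII oocytes, in PN embryos and in sperm. Members were chosen by the name of the host gene alone, from 29 gene name prefixes such as HNRNP, SRPK, RBM, CNOT, CPEB, MBNL, ELAVL, EIF and PRPF. The rule found 79 of the 3071 circRNAs in the table, and these came from 47 of 1727 host genes. MII oocytes are eggs arrested at metaphase II of meiosis, here matured in vitro from cumulus-oocyte complexes of Long White gilts older than 8 months and freed of cumulus cells. PN embryos are fertilized eggs at the pronuclear 1-cell stage, made by in vitro fertilization, for which the methods name semen of Landrace boars aged 2 to 3 years. Sperm were fresh, purified and mature, from Large White boars of the same age, so that the sires of the embryos and the sequenced sperm differ in breed. Each group had 3 libraries from pooled cells, the labels give every group as without treatment, and no genetic change was made. Sperm replicates 1 and 3 hold the same value for every circRNA, so they were entered as 1 sample and sperm had n = 2. Which of these columns holds its own library is not known, and the shared column is called sperm library 1 here. Nothing in the labels says whether replicates came from separate animals or collections, so p-values measure the spread between these libraries.

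A circRNA is a closed loop made when the spliceosome joins the end of an exon back to an upstream start site. Its lack of free ends protects it from exonucleases that remove linear mRNA. RNA-binding proteins take part in this process, since several of them bind introns and promote or block the joining, and the genes that encode them give rise to circRNAs as well. In the egg, transcription is silent after maturation, so that stored mRNAs are controlled by shortening or lengthening of the poly(A) tail, by masking proteins and by the translation machinery. Mature sperm carry RNA made before their chromatin was compacted.

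The members were a small part of the circRNA counts in every library. MII oocyte libraries 1 to 3 held 24217, 24002 and 22809 circRNA counts, of which 366, 184 and 728 were from members. For PN embryos the totals were 23056, 26200 and 24503, with 167, 488 and 477 counts from members. The 2 sperm libraries held 155731 and 167851 circRNA counts, with 6207 and 3283 from members. Sperm therefore had a deeper circRNA table than either of the other groups, and a count of 0 in an oocyte or embryo library allows a higher share than a count of 0 in sperm. Taking 3 counts as the limit that a 0 allows, this is at most 1.32 per 10000 circRNA counts in the oocyte and embryo libraries and at most 0.193 in sperm. These limits and all intervals cover counting error only and leave out the spread between libraries. They may be too narrow even for counting error, because the reads were amplified by PCR and carry no molecular identifiers.

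As a share of all circRNA counts, members made up 1.51%, 0.767% and 3.19% in MII oocytes, and 0.724%, 1.86% and 1.95% in PN embryos. Sperm library 1 gave 3.99% (95% Clopper-Pearson interval 3.89 to 4.08%) and library 2 gave 1.96% (1.89 to 2.02%). Library 3 was the highest of the MII oocytes, library 1 was the lowest of the PN embryos, and the 3 groups overlapped or touched within their intervals. The means were 1.82% ± 1.24 (SD, n = 3), 1.51% ± 0.683 (SD, n = 3) and 2.97% ± 1.44 (SD, n = 2) for MII oocytes, PN embryos and sperm. MII oocytes overlapped with both other groups. Both sperm libraries lay above every PN embryo library, though sperm library 2 (1.956%) only just exceeded PN embryo library 3 (1.947%). As a share of the circRNAs above 0 in a library, members made up 1.86 to 2.52% in MII oocytes and 2.63 to 3.2% in PN embryos, without overlap. These differences were not tested. Against the valid reads of each whole library, by contrast, the members stood at 2.25 to 9 counts per 1000000 reads in MII oocytes, 2.1 to 6.1 in PN embryos and 40.9 to 78.8 in sperm, without overlap between sperm and the rest. The whole circRNA table separated in the same way, at 282 to 328 counts per 1000000 reads in oocytes and embryos and 1978 and 2089 in sperm, so this is no trait of the members. In bulk libraries like these, more cells of a kind and more RNA per cell cannot be told apart.

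**Figure D1:**
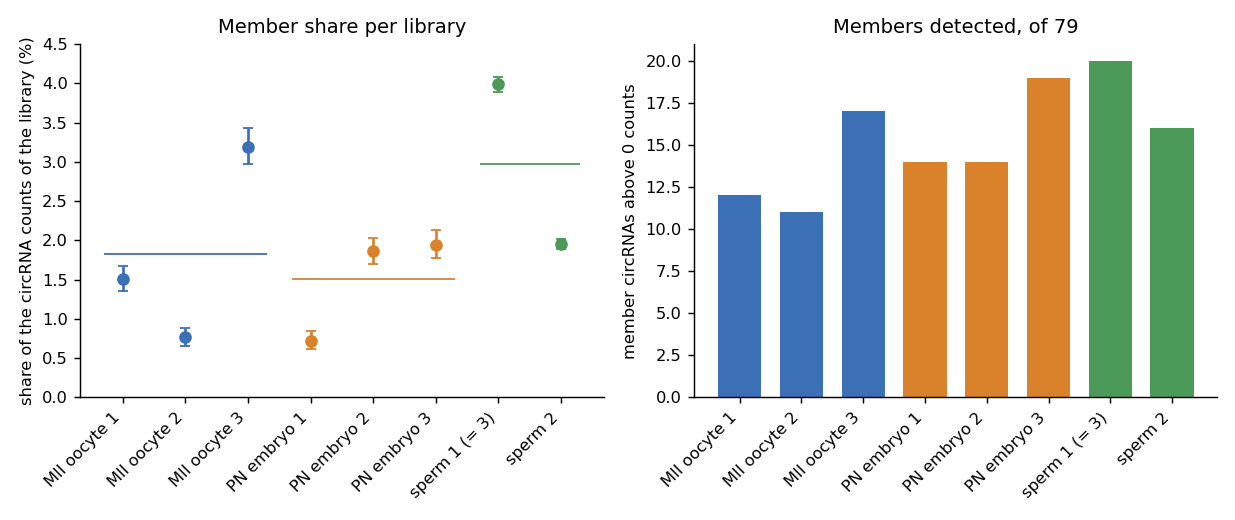
Left, share of the circRNA counts of each library that came from the 79 members (%), with points for libraries, bars for 95% Clopper-Pearson intervals and lines for group means. Right, number of members above 0 counts in each library, from 11 to 17 in MII oocytes, 14 to 19 in PN embryos, and 20 and 16 in sperm; sperm library 1 stands for the identical replicates 1 and 3.

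The member with the highest count held between 10.1% and 50.7% of the member counts of a library. RBM6 circRNA370 gave 369 of the 728 member counts (50.7%) in MII oocyte library 3 and 35.3% of them in library 2. EIF4G3 circRNA2716 gave 785 of 3283 (23.9%) in sperm library 2. Without the highest member of each library, the mean shares were 1.11% in MII oocytes, 1.15% in PN embryos and 2.55% in sperm. Number of circRNAs per host gene was ordinary, at 1.68 for members and 1.78 for the whole table, with 30 of 47 member hosts (63.8%) giving 1 circRNA against 63.6% of all hosts. Host genes with at least 3 circRNAs included PAN3 with 8, EIF4G3 with 5, CNOT1 with 4, and ELAVL2, HNRNPH3 and SRPK2 with 3 each. For 3 members, CPEB2 ciRNA39, CPEB2 ciRNA46 and HNRNPK ciRNA40, the name carries the prefix ciRNA, which is used for circles of intron sequence, against 46 (1.5%) in the whole table.

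Most members were seen in a single group and in a single library. Of the 79, 14 were found in MII oocytes alone (17.7%, against 30.7% of all circRNAs), 22 in PN embryos alone (27.8%, against 23.8%) and 26 in sperm alone (32.9%, against 24.8%). A further 9 were shared by MII oocytes and PN embryos, 3 by MII oocytes and sperm, 2 by PN embryos and sperm, and 3 by all groups. As shares of members and of all circRNAs these were 11.4% and 12.8% for MII oocytes with PN embryos, 3.8% and 1.89% for MII oocytes with sperm, 2.53% and 3.35% for PN embryos with sperm, and 3.8% and 2.67% for all groups. In all, 60 members (75.9%) were above 0 in 1 of the 8 distinct libraries, against 71.4% of all circRNAs, and no member was above 0 in all 8, which 4 circRNAs of the table were. These are descriptions of 2 overlapping sets, and no test was made of them.

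**Figure D2:**
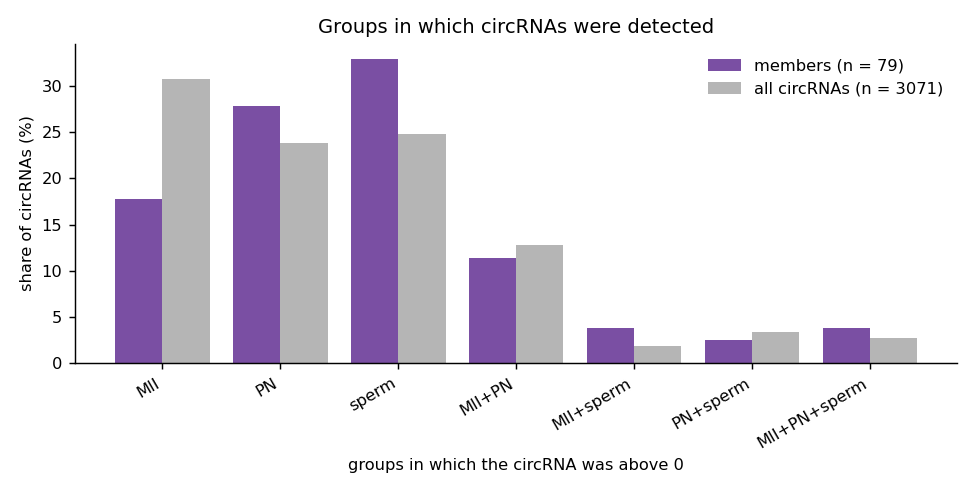
Share of circRNAs (%) by the groups in which they were above 0 counts, for the 79 members and for all 3071 circRNAs. Members found in sperm alone were the most frequent class at 32.9%, while MII oocyte alone was the most frequent class of the whole table at 30.7%.

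Detection varied within a group even for circRNAs with high counts. Of the 22 members that reached 50 counts in a sperm library, 20 (90.9%) were at 0 in the other sperm library, and the share for all circRNAs was 83.2%. For MII oocytes this held for 3 of 6 members, against 58.5% of all circRNAs, and for PN embryos for 1 of 5, against 62.5%. The 4 members in every MII oocyte library were RBM6 circRNA370 and PAN3 circRNA418, circRNA419 and circRNA420, or 13.8% of the 29 members found there, against 5.01% of all circRNAs found in oocytes. Counted by host gene the order turned, with 2 of 22 member hosts (9.09%) in every MII oocyte library against 12.4% of all hosts. In PN embryos 2 of 36 members (ELAVL2 circRNA256 and PAN3 circRNA419) were in every library (5.56%, against 5.66% of all circRNAs), and in sperm 2 of 34 (HNRNPLL circRNA147 and SRPK2 circRNA1902, or 5.88%, against 12.5%).

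The comparisons between groups were made with edgeR's quasi-likelihood test over the whole table, leaving out circRNAs detected in fewer than 3 of the libraries compared. A call needed a log2 fold change of 1 or more in either direction together with an adjusted p (Benjamini-Hochberg) under 0.05. Between PN embryos and MII oocytes, 0 of 270 circRNAs were called (0%), 16 had an unadjusted p under 0.05, and DESeq2 called 1, which is no member. All 7 members tested were far from the threshold, with adjusted p between 0.985 and 0.996 and 0 at an unadjusted p under 0.05 by edgeR or by DESeq2. They were MBNL3 circRNA1015, ELAVL2 circRNA255 and circRNA256, RBM6 circRNA370, and PAN3 circRNA418, circRNA419 and circRNA420. Between sperm and MII oocytes, 61 of 123 circRNAs (49.6%) were called, 8 higher and 53 lower in sperm, and 2 of the 5 members tested were lower in sperm and 0 higher. Between sperm and PN embryos, 54 of 143 (37.8%) were called, 1 higher and 53 lower, and 1 of 5 members tested was lower and 0 higher. Neither share of members called exceeds that of all circRNAs tested. The 3 calls fell on members with 0 or 1 count in sperm that entered the fit through the group where they were high, so these calls give no support to a direction. With 2 sperm libraries, a circRNA of sperm passes this filter only if it is also above 0 in a library of the other group, as SRPK2 circRNA1902 was in PN embryos.

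The filter decides what these fits can show. A circRNA of sperm alone could be above 0 in 2 distinct libraries at most, so none of the 26 members found in sperm alone was tested under this filter. Without a filter, edgeR called 0 members in any comparison. The direction of calls also moved with the scaling. With the total circRNA count in place of trimmed-mean scaling, edgeR called 17 higher and 53 lower in sperm than in MII oocytes, and 15 higher and 29 lower than in PN embryos. DESeq2, which differs in the test as well, called 18 higher and 60 lower, and 17 higher and 62 lower. The median log2 fold change of all tested circRNAs was -4.56 with trimmed-mean scaling and -4.04 with the total count for sperm against MII oocytes, and -3.12 and -0.91 for sperm against PN embryos. Fold changes of single members are to be read against these medians. With any 1 library left out, edgeR called 0 to 19 circRNAs between sperm and MII oocytes and 0 to 31 between sperm and PN embryos. Of the 3 member calls, those of PAN3 circRNA419 and ELAVL2 circRNA256 were lost with total-count scaling, and all 3 were lost without the filter or with all groups in a single fit.

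Host genes of the deadenylation and decay machinery gave 16 members from 5 genes, of which 12 were found in PN embryos, 4 in MII oocytes and 6 in sperm. They held 59.9%, 23.4% and 50.3% of the member counts in PN embryo libraries 1 to 3, and 25.4%, 20.7% and 13.9% in the MII oocytes. In sperm the share of member counts was 7.96% and 3.87%, below every oocyte and embryo library. As a share of all circRNA counts the family stood at 0.317% and 0.0757% in sperm, which overlapped with 0.158 to 0.443% in MII oocytes but lay below 0.434 to 0.98% in PN embryos. The 34 other mRNA decay and surveillance genes looked up outside the name rule went the other way, with 0.993% and 0.938% in sperm against 0 to 0.45% in MII oocytes and 0.0531 to 0.504% in PN embryos. PAN3, the regulatory subunit that brings the PAN2 deadenylase to poly(A) tails, was the host with the most circRNAs. It lies at chr11:5487019-5614458 of Sscrofa11.1, as do all gene positions given here from the RefSeq annotation of that build. The table gives host gene names and no positions for the circles themselves, so exons cannot be assigned. PAN3 was the only member host above 0 in all 8 distinct libraries, which 13 hosts of the table were, and 29 hosts of the table had as many circRNAs or more.

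PAN3 circRNA420 had 26, 29 and 34 counts in MII oocytes, 0, 31 and 53 across PN embryos, and 0 in both sperm libraries. Its level varied least among the members found in every MII oocyte library, at 12.6 ± 2.13 per 10000 circRNA counts (SD, n = 3), and all MII oocyte libraries lay above sperm. Its MII oocyte mean lay 65.3-fold above the highest level that 3 counts per sperm library allow. edgeR called it, but it entered the fit only through the oocytes, so the values are given as a description. In PN embryos the mean was 11.2 ± 10.8 (SD, n = 3), with library 1 at 0 and library 3 above every oocyte library.

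PAN3 circRNA419 had 2, 5 and 66 counts in MII oocytes, 3, 4 and 39 across PN embryos, and 1 and 0 in sperm. It was above 0 in all 6 oocyte and embryo libraries, and library 3 was by far the highest in each of these groups. With 73 counts summed over MII oocytes and 1 over sperm, the ratio of shares was 333 (95% exact interval 57.8 to 13313), but 66 of the 73 came from MII oocyte library 3. The edgeR log2 fold change for sperm was -8.56 (SE 3.04, adjusted p = 0.0498), and without that library it was -5.63 (adjusted p = 0.175). Against PN embryos the log2 fold change was -9.55 (SE 3.57) and the adjusted p was 0.0637, which misses the threshold. Neither circRNA419 nor circRNA420 was called by edgeR when either sperm library was left out. Without any 1 MII oocyte library circRNA419 was not called either, and circRNA420 was then in too few libraries for the filter.

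PAN3 circRNA418 had 21, 4 and 1 counts in MII oocytes, 25, 0 and 0 across PN embryos, and 0 and 11 in sperm. The groups overlapped, and it was not called in either of the fits that tested it. Together these 3 circles account for PAN3 in the oocytes, whereas other libraries held circles of their own. PN embryo library 1 had 41 counts of circRNA1673, library 3 had 2 of it together with 28 of circRNA2192 and 13 of circRNA2193, and sperm library 1 had 463 of circRNA2565 and 1 of circRNA2566. Summed over its circles, PAN3 ranged from 0.00655% of the circRNA counts in sperm library 2 to 0.551% in PN embryo library 3.

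**Figure D3:**
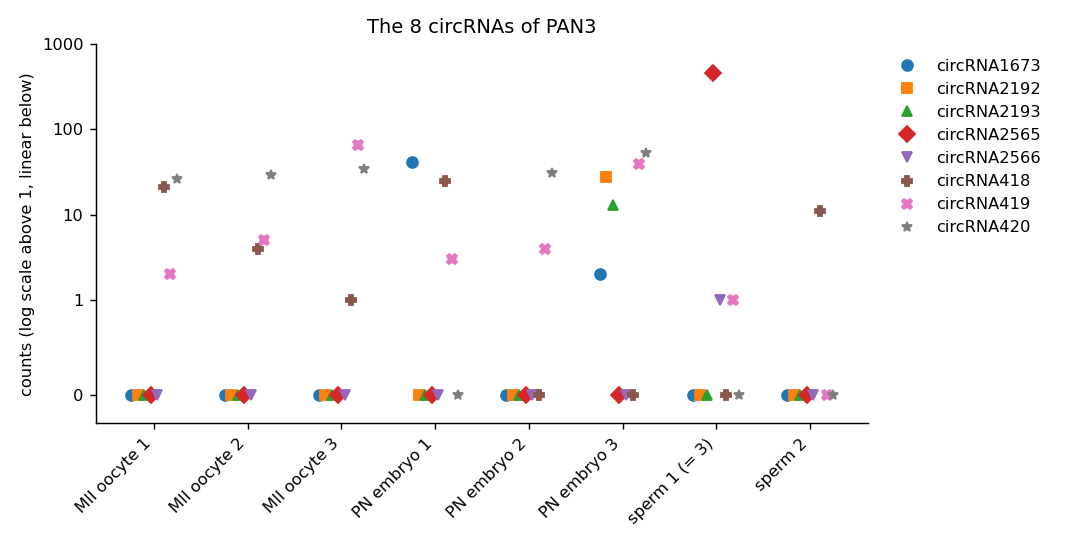
Counts of the 8 circRNAs of PAN3 in each library, on a log scale above 1 count and a linear scale below it, with 1 symbol per circRNA. circRNA418, circRNA419 and circRNA420 make up the oocyte counts, and circRNA2565 reaches 463 counts in sperm library 1 and 0 elsewhere.

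The CCR4-NOT complex, the main deadenylase of the cytoplasm, gave 7 members. CNOT1, its scaffold (chr6:20271593-20372300), had 44 counts of circRNA38 in MII oocyte library 1 and 32 in PN embryo library 2. Its other circles were found in PN embryos alone, with 1 count of circRNA1482, 47 of circRNA1772 and 6 of circRNA2036, each in a different library. CNOT6L, a catalytic subunit (chr8:73191721-73335779), gave circRNA2157 with 0, 0 and 99 counts in PN embryos and 0 elsewhere. CNOT4, a ubiquitin ligase that works with the complex, had 30 counts of circRNA1746 in PN embryo library 1 and 29 of circRNA2678 in sperm library 1. XRN1, the exonuclease that degrades decapped mRNA, was found through circRNA2915 with 116 counts in sperm library 2. All of these were at 0 in at least 6 of the 8 distinct libraries.

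RBM, MBNL, CELF and ELAVL genes encode regulators of alternative splicing and of mRNA stability, and gave 10 members from 6 genes. They held 57.7%, 45.7% and 56.9% of the member counts in MII oocytes, more than any other family in each oocyte library. In PN embryos they held 12%, 42.2% and 31.7%, and in sperm 29.1% and 5.94%. RBM6, a splicing regulator with RNA recognition motifs (chr13:32444944-32569818), gave a single circle. Its circRNA370 had 51, 65 and 369 counts in MII oocytes, 0, 131 and 101 across PN embryos, and 628 and 0 in sperm. It was the member with the highest mean share in MII oocytes and PN embryos, but each group ranged widely and all overlapped. Per 10000 circRNA counts it stood at 70 ± 79.6 (SD, n = 3), 30.4 ± 26.7 (SD, n = 3) and 20.2 ± 28.5 (SD, n = 2). No fit with all libraries called it, with an edgeR adjusted p of 0.342 for sperm against MII oocytes and 0.464 against PN embryos. Leaving out sperm library 1, which holds its 628 sperm counts, leaves 1 sperm library at 0 and takes the spread from the oocytes alone. edgeR then called it lower in sperm (log2 fold change -11.62, adjusted p = 0.0167), an outcome that the choice of library sets.

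ELAVL2, a neuronal-type ELAV protein that binds AU-rich sequences and is also made in oocytes (chr1:198964070-199135815), gave 3 circles, all at 0 in both sperm libraries. circRNA254 had 53 counts in MII oocyte library 1 and 0 in all others. The MII oocyte libraries had 36, 0 and 37 counts of circRNA255, and the PN embryo libraries 13, 0 and 6. Of circRNA256 there were 71, 0 and 3 in the MII oocytes, then 7, 62 and 13 in the PN embryos. The oocyte and embryo levels overlapped for both of the latter, and MII oocyte library 2 held none of the 3 circles. The PN embryo mean of circRNA256 lay 55.4-fold above the highest level that 3 counts per sperm library allow. That fold rests largely on PN embryo library 2, at 23.7 per 10000 circRNA counts against 3.04 and 5.3 in libraries 1 and 3. edgeR called circRNA256, but it entered the fit only through the PN embryos, so this too is a description. It was not called by edgeR without either sperm library and was in too few libraries for the filter without any 1 PN embryo library. It was also in too few against MII oocytes, where edgeR did not call it without a filter (adjusted p = 0.366) or with all groups in a single fit (0.0846).

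The remaining members of this family were found mostly in single libraries. RBM46, a germ cell protein needed for meiosis (chr8:74337324-74383044), gave circRNA2510 with 624 counts in sperm library 1 and 0 elsewhere. CELF1, which promotes decay of mRNAs with GU-rich elements (chr2:15066518-15161478), gave circRNA1165 with 1 count in MII oocyte library 3 and 556 in sperm library 1, and circRNA2096 with 28 in PN embryo library 3. MBNL3, a muscleblind splicing factor, gave circRNA3014 with 195 counts in sperm library 2. Its circRNA1015 was at 0, 19 and 4 in MII oocytes, at 0, 9 and 3 in PN embryos and at 0 in sperm. The paralogue MBNL2 gave circRNA1945, with 4 counts in PN embryo library 2.

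Heterogeneous nuclear ribonucleoproteins (hnRNPs) coat nascent transcripts and influence splice site choice. They gave 8 members from 4 genes and 24.1% and 19.4% of the member counts in sperm, against 0 to 8.79% in MII oocytes and 4.79 to 26% in PN embryos. HNRNPLL, a regulator of alternative splicing (chr3:101753330-101795356), gave the one member with high counts in both sperm libraries. Its circRNA147 had 20, 0 and 0 counts in MII oocytes, 0 in all PN embryo libraries, and 544 and 638 in sperm. Both sperm libraries, at 36.5 ± 2.18 per 10000 circRNA counts (SD, n = 2), lay above every other library. The sperm mean of circRNA147 lay 28-fold above the highest level that 3 counts per embryo library allow. Against PN embryos this circle was in too few libraries for the filter. edgeR did not call it there without a filter (adjusted p = 0.385) or with all groups in a single fit (0.099). Against MII oocytes its log2 fold change was 3.29 (SE 2.23), and edgeR's adjusted p was 0.253. A second circle of this gene, circRNA1152, had 63 counts in MII oocyte library 3, 1 in PN embryo library 3 and 0 in sperm.

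HNRNPH3 (chr14:71485925-71498356) gave circRNA1996, one of the 2 members that were at 0 in MII oocytes and above 0 in both PN embryos and sperm. PN embryos held 0, 127 and 29 counts of it, and sperm 334 and 0. The embryo and sperm levels overlapped, at 20.1 ± 25.3 (SD, n = 3) and 10.7 ± 15.2 (SD, n = 2) per 10000 circRNA counts, and edgeR did not call the difference (log2 fold change -3.12, SE 3.19, adjusted p = 0.445). Between PN embryos and MII oocytes it was in too few libraries for the filter. edgeR did not call it there with circRNAs above 0 in at least 2 libraries (adjusted p = 0.389), with all groups in a single fit (0.67) or without a filter (0.371). The 2 other circles of HNRNPH3, circRNA1417 and circRNA1729, had 1 count in MII oocyte library 3 and 8 in PN embryo library 1. HNRNPK, a protein that binds C-rich RNA (chr10:30975639-30987955), gave ciRNA40 with 617 counts in sperm library 1 and 0 elsewhere. The circles of HNRNPA3 did not exceed 2 counts.

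SRPK1 and SRPK2 are the kinases that phosphorylate serine and arginine-rich splicing factors, and gave 4 members. SRPK2 (chr9:105009550-105264689) gave circRNA1902, the other member at 0 in MII oocytes and above 0 in embryo and sperm. PN embryos held 0, 1 and 0 counts of it, and sperm 572 and 3. The single embryo count is under the limit of 3 that a 0 allows, and sperm library 1 held nearly all the sperm counts. With 575 counts over sperm and 1 over PN embryos, the ratio of shares was 131 (95% exact interval 23.4 to 5186), while edgeR, which takes the spread between libraries into account, did not call it (log2 fold change 4.87, SE 2.91, adjusted p = 0.227). Against MII oocytes, where 3 counts correspond to at most 1.32 per 10000 circRNA counts, sperm library 1 lay above at 36.7 and sperm library 2 below at 0.179. It was in too few libraries for the filter there, and edgeR did not call it with circRNAs above 0 in at least 2 libraries (adjusted p = 0.111), with all groups in a single fit (0.0846) or without a filter (0.366). A second circle, circRNA2495, had 626 counts in sperm library 1 alone, and circRNA836 had 33 in MII oocyte library 2. SRPK1 circRNA8 had 20 counts in MII oocyte library 1. No circRNA had a host gene named SRSF, the substrates of these kinases.

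Among spliceosome components, PRPF3 and PRPF6, proteins of the tri-snRNP, were found in sperm alone. PRPF3 gave 38 counts of circRNA2366 in library 1 and 116 of circRNA2762 in library 2, and PRPF6 gave 135 of circRNA2961 in library 2. The 6 members of RNA helicase genes were each in a single library. DHX30 circRNA2526 had 507 counts in sperm library 1, DDX6 circRNA2867 had 46 in sperm library 2 and DHX9 circRNA1260 had 11 in MII oocyte library 3, and the others had 1 to 4 counts.

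Translation initiation factors gave 14 members from 10 genes, and 52.4% of the member counts in sperm library 2 against 1.22% in sperm library 1. In percentage points of member counts, this was the widest gap between the sperm libraries for any family. EIF4G3, a scaffold of the cap-binding complex that is required in male meiosis (chr6:79022222-79382062), made most of it. In sperm library 2 circRNA2716 had 785 counts, circRNA2717 had 307 and circRNA1066 had 244, and all were at 0 in sperm library 1. Outside sperm, circRNA1066 had 1 count and circRNA1067 had 33 in MII oocyte library 3, and circRNA1775 had 8 in PN embryo library 2. EIF3E, a subunit of the initiation factor that binds the small ribosomal subunit, gave circRNA2751 with 386 counts in sperm library 2 alone. EIF2AK2, the kinase activated by double-stranded RNA, gave circRNA1153 with 47 counts in MII oocyte library 3 and 1 in PN embryo library 1. EIF5B, which joins the ribosomal subunits, gave circRNA1540 with 25 counts in PN embryo library 1.

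Regulators of stored mRNA gave 14 members from 10 genes. STAU1 and STAU2 bind double-stranded RNA and carry mRNAs within the cell. STAU1 (chr17:50804959-50903155) gave circRNA1368 with 53 counts in MII oocyte library 3 and 2 in PN embryo library 3, and circRNA1969 with 0, 7 and 49 in PN embryos. STAU2 was found in sperm alone, with 163 counts of circRNA2355 in library 1 and 214 of circRNA2753 in library 2. CPEB proteins bind the cytoplasmic polyadenylation element and control the poly(A) tails of maternal mRNAs. CPEB1, the form best known from oocytes, had 2 counts of circRNA1471 in PN embryo library 1. CPEB2 was in sperm alone with 33 counts of ciRNA39 in library 1 and 36 of ciRNA46 in library 2, and CPEB3 circRNA2656 had 219 in sperm library 1. YTHDF2, a reader of N6-methyladenosine needed for clearance of maternal mRNA, gave circRNA2310 with 176 counts in sperm library 1 alone. The other members here, from FXR1, LARP1B, LARP4 and YTHDC1, had between 2 and 47 counts, each in a single library. AGO1, an effector of miRNAs, gave circRNA629 with 3 counts in MII oocyte library 2.

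**Figure D4:**
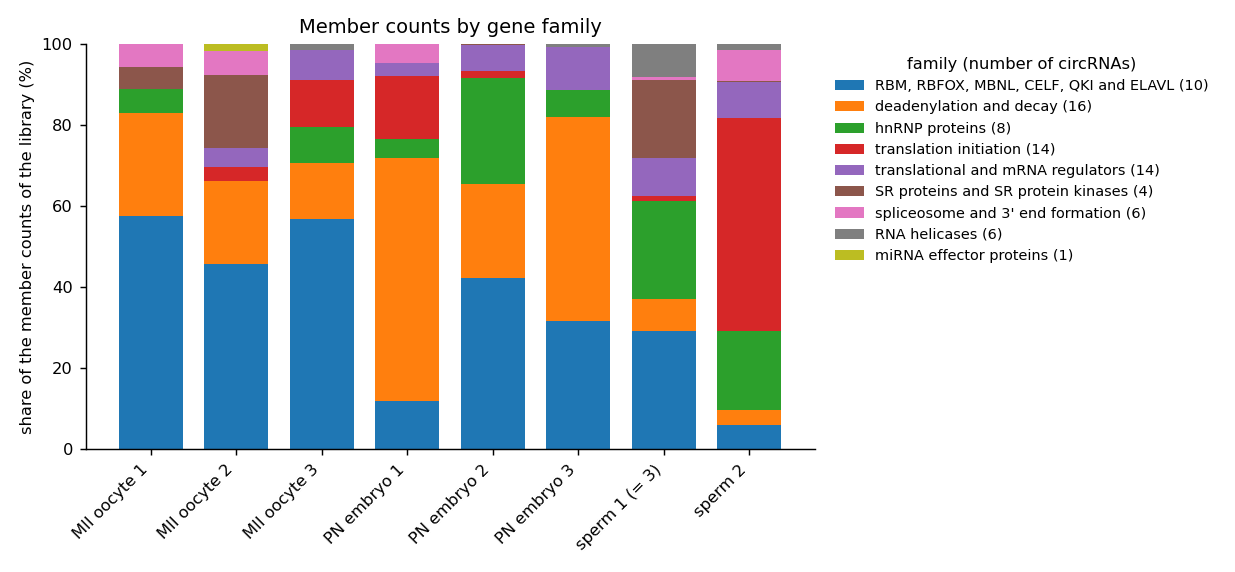
Share of the member counts of each library (%) by gene family, with the number of circRNAs of each family in the legend. RBM, MBNL, CELF and ELAVL genes hold 45.7 to 57.7% in the MII oocytes, deadenylation and decay genes 59.9% in PN embryo library 1, and translation initiation genes 52.4% in sperm library 2.

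The libraries were also compared by host gene. Of the 22 member hosts found in MII oocytes, 2 were in every oocyte library (9.09%, against 12.4% of all hosts). Of the 23 found in PN embryos, 4 were in every embryo library (17.4%, against 12.95%). In the sperm libraries 6 of 25 member hosts (24%) were in both, against 21.4% of all hosts found in sperm, while the same held for 5.88% of member circRNAs and 12.5% of all circRNAs. CPEB2, STAU2, PRPF3 and PAN3 reached both sperm libraries through different circles, and HNRNPLL and SRPK2 through the same one. Across groups, 9 of 47 member hosts (19.1%) were in sperm and also in oocytes or embryos, against 21.5% of all hosts. CNOT4 and MBNL3 were the 2 of these 9 with no circle shared between sperm and the other cells, against 147 of 371 such hosts in the whole table. How far a library of this depth would miss a circle was not tested.

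**Figure D5:**
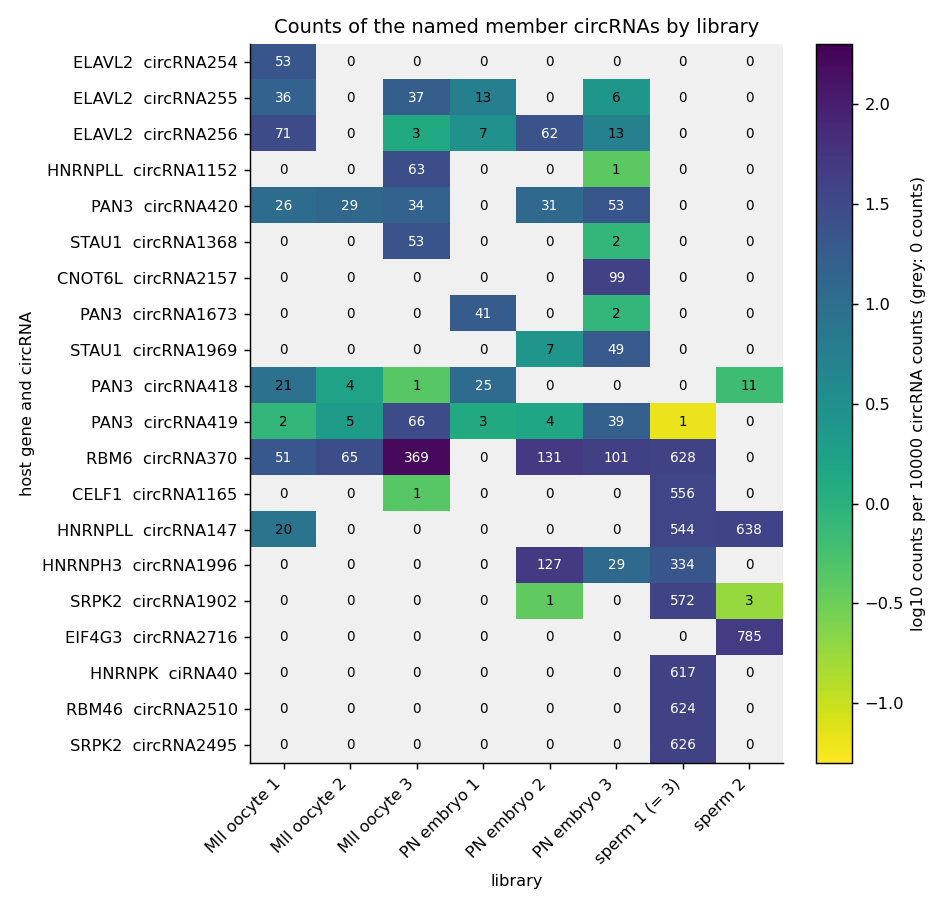
Counts of the 20 named members in each library, printed in the cells, with colour for log10 counts per 10000 circRNA counts and grey for 0. Only HNRNPLL circRNA147 is high in both sperm libraries (544 and 638), and the rows found in MII oocytes and PN embryos differ between libraries of the same group.

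For the 5 members that the naming rule selects and that were above 0 in at least 2 of the 3 libraries of both groups, PN embryos were also compared with MII oocytes on counts per 10000 circRNA counts. Exact two-sided permutation tests gave p = 0.4 for ELAVL2 circRNA255, 1 for ELAVL2 circRNA256, 0.7 for RBM6 circRNA370, 0.7 for PAN3 circRNA419 and 0.8 for PAN3 circRNA420. With 3 against 3 libraries such a test cannot go below 0.1, so none could have passed. ELAVL2 circRNA255 had the largest ratio of means of these, at 10.4 ± 9 (SD, n = 3) in MII oocytes and 2.7 ± 2.83 (SD, n = 3) in PN embryos, and the libraries of both groups overlapped.

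Of 193 further RNA-binding, splicing and decay genes outside the name rule, 35 gave 62 circRNAs, of which 24 were found in MII oocytes, 22 in PN embryos and 29 in sperm. Their share of the circRNA counts was 0.405 to 1.78% in MII oocytes, 0.204 to 0.969% in PN embryos, and 1.82% and 2.18% in sperm. At most 3 of them could be tested in a comparison, and 0 were called by edgeR in any. PARN circRNA2380, from a poly(A)-specific ribonuclease gene, had 36 and 326 counts in sperm and 0 elsewhere. Within the name rule itself, 10 of the 29 prefixes matched no host gene, among them RBFOX, QKI, PUM, TNRC6, PABP and ADAR.

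The cell types were checked through circRNA hosts, since no gene symbols could be paired with the mRNA table. Oocyte markers gave a circRNA for 3 of 14 genes, with 49 counts of ZP2 in MII oocyte library 1, 78 and 1 of NLRP5 and 2 of ZP3 in PN embryos, and 0 in sperm. Sperm markers gave 2 of 15, with 80 counts of SPATA6 and 48 of ODF2 in sperm and 0 elsewhere. Cumulus and granulosa cell markers gave 1 of 10, 19 counts of CYP19A1 in sperm library 1, and leukocyte and Sertoli or epididymal markers gave 0. Marker genes need not form circRNAs, so these values check the labels only in part.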

How the data were processed

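Libraries were strand-specific, made from total RNA after removal of ribosomal RNA, with PCR amplification. The authors deposited whole-number counts per circRNA, not normalized, for 9 libraries. The submitters' processing notes name Sscrofa11.1, cutadapt 1.9, TopHat2 2.0.4, HISAT2 2.0.4, StringTie 1.3.4d and edgeR, without roles. The circRNA caller and what a count covers are not given in the sources used here. Of the 9 count columns 0 were left unused, and the identical sperm columns 1 and 3 were entered once. The mRNA and lncRNA tables carry no gene symbols and are not used here. The library totals of 22809 to 167851 circRNA counts set the precision.

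Members, families, marker lists and the list of further RNA genes were chosen with earlier results of these data known. Members were named by rule: the 8 with the highest mean library share in each group, those called, those above 0 in all oocyte and embryo libraries or in all groups, and those at 0 in MII oocytes but above 0 in PN embryos and sperm. The other members were described by family after their values were seen, and some genes are not reported here. All 47 host symbols matched the RefSeq table of Sscrofa11.1.

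Fits used edgeR 4.0.16 in R 4.3.3 on the 2 groups compared, with trimmed-mean scaling. DESeq2 1.42.0, total-count scaling, other filters, a fit of all groups, a replicate block and leaving out each library were the alternatives. Exact permutation tests and intervals used scipy 1.17.1.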

Additional observations from a re-analysis of the deposited data

How the results depend on the processing

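The counts of called circRNAs depended strongly on the processing. Between PN embryos and MII oocytes, DESeq2 called 1 circRNA and edgeR 0 under every setting run. For sperm against MII oocytes edgeR called 61, against 19 without a filter on low counts, 10 with circRNAs above 0 in at least 2 libraries, 31 with all groups in 1 fit, 134 with the identical sperm columns as 2 samples, and 0 to 19 when a library was left out. For sperm against PN embryos it called 54, against 8, 17, 24, 109 and 0 to 31 in the same order. Of members, DESeq2 called PAN3 circRNA419 and circRNA420 lower in sperm than in MII oocytes, and ELAVL2 circRNA256 and PAN3 circRNA419 lower than in PN embryos. Total-count scaling called circRNA420 alone, and the other filters and the joint fit called 0 members. With the identical columns as 2 samples, 3 members were called between sperm and PN embryos, HNRNPLL circRNA147 higher in sperm and ELAVL2 circRNA256 and PAN3 circRNA419 lower. The replicate block gave 0 calls between sperm and MII oocytes, 0 between sperm and PN embryos and 0 between PN embryos and MII oocytes. The labels do not say whether equal replicate numbers pair the samples. The deviations of same-numbered oocyte and embryo libraries correlated at -0.0853, 0.11 and -0.046. These values cannot decide it, because detection varied strongly between libraries of a group. With a library left out, the PN embryo minus MII oocyte level per 10000 circRNA counts changed sign for ELAVL2 circRNA256 (-6.04 to 10.01), RBM6 circRNA370 (-64.02 to 6.34), PAN3 circRNA419 (-9.26 to 4.79) and PAN3 circRNA420 (-6.66 to 4.16). Leaving out a library gave mean member shares of 1.14 to 2.35% in MII oocytes, 1.29 to 1.9% in PN embryos and 1.96 to 3.99% in sperm. With at least 10 counts required, 8 members were detected on average in MII oocytes, 7.33 in PN embryos and 16 in sperm. Above 0 counts these means were 13.3, 15.7 and 18. Members were on average 2.13% of the circRNAs above 0 in MII oocytes (1.86 to 2.52%), 2.85% in PN embryos (2.63 to 3.2%) and 3.19% in sperm (2.82 and 3.56%). On this measure every PN embryo and sperm library lay above every MII oocyte library, unlike the share of counts. Where no value shows why a result moved, the cause was not tested.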
